A study of Sorghum bicolor with 14 samples.

Results

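From unpollinated pistil to sorghum seed 30 days after pollination, the genes described here each varied less than 2-fold in share of all transcripts. They were chosen from the deposited TPM table itself: a gene was included when it had at least 20 TPM in each of the 5 stage columns and its highest TPM was less than 2 times its lowest. This rule found 285 of the 31337 genes of the table, or 0.909%, called steady genes below. A total of 2091 genes reached 20 TPM in all 5 stages, and the steady genes are 13.6% of those. The steadiness is therefore how they were chosen and not a result. TPM (transcripts per 1000000) divides the reads of a gene by its length and brings every column to an equal sum, so the number states a share of all transcripts and not an amount per cell or per seed.

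The samples came from Sorghum bicolor of the variety M35-1, raised in an open field. The first group is the unpollinated pistil (1-2 DBP, days before pollination), and later material was taken 0 to 2, 10, 20 and 30 days after pollination (DAP), with 2 libraries at 30 DAP and 3 at every other stage. The 0-2 DAP libraries are labelled pistil by source and seed by tissue. The deposited table has 1 value per gene and stage and none per library, so no value below has a replicate error and no difference has a test. Whole pistils and seeds were sampled, so that fewer cells of a type and less RNA per cell cannot be told apart. The cultivar field is filled in for the 1-2 DBP and 0-2 DAP libraries, whose accession numbers form a block apart from those of the later stages, so anything technical that sets these blocks apart and the difference between 0-2 DAP and 10 DAP cannot be told apart.

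Genes of even expression are used as references for quantitative PCR and for scaling sequencing libraries, and many such genes belong to the basic machinery of the cell, such as the cytoskeleton, protein synthesis and protein turnover. A developing cereal grain is a demanding place to look for them. While the endosperm fills, transcripts for storage proteins and starch synthesis come to occupy a large part of the pool, and the maturing seed then replaces them with transcripts for desiccation and dormancy. A gene whose share stays even through these shifts need not be a gene whose amount per cell stays even. The files do not pair the gene IDs with names, and the RefSeq gene table used here holds 0 of the 31337 IDs, so the genes are described by ID, level and course, and none is assigned a function.

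Most steady genes were of moderate level. Their mean TPM over the 5 stages ran between 23.1 and 4183, with a median of 56.7, against a median of 87.3 for the 1806 other genes of at least 20 TPM. Of the 285, 125 had a mean of 20 to 50 TPM, 86 of 50 to 100 TPM, 67 of 100 to 500 TPM and 7 of 500 TPM or more. These 7 held 31.2% of all the TPM of the steady genes summed over the stages. Together the 285 genes held 3.77% of all TPM at 1-2 DBP, and in the 4 stages that followed their share was 3.27%, 3.85%, 2.85% and 3.43%. The share was lowest at 20 DAP, which is also the stage where the largest number of members had their lowest value. This low point was not particular to them: the 1806 other genes of at least 20 TPM held 40.3%, 32.8%, 30.1%, 23.4% and 36.7% in stage order.

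The most abundant steady gene was Sobic.003G071901, with 3942, 3688, 5481, 4192 and 3614 TPM in stage order, that is from 1-2 DBP to 30 DAP. It stood highest at 10 DAP, 1.52 times its lowest value. Sobic.007G028400 followed with 2660, 2394, 3273, 1649 and 2424 TPM in the same order. Its 10 DAP value was 1.98 times its 20 DAP value, so this abundant gene lay close to the limit of the rule. Sobic.004G006300 had 2073, 1098, 1089, 1390 and 2038 TPM, high at both ends of the series and low at 0-2 and 10 DAP. Sobic.005G019700 had 928, 761, 1121, 580 and 621 TPM, and Sobic.001G085400 had 656, 573, 683, 345 and 684 TPM. Both of these had their lowest value at 20 DAP. Of the 5 most abundant steady genes, 2 were among the 100 genes with the highest TPM of any column.

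The genes with the smallest range were less abundant. Sobic.010G224300 had 21.5, 22.0, 25.3, 23.3 and 23.6 TPM from 1-2 DBP to 30 DAP, a highest value 1.18 times the lowest. All 5 values lay just above the 20 TPM minimum. Sobic.003G408300 had 24.9, 27.2, 22.3, 21.8 and 26.6 TPM, a ratio of 1.25. Sobic.007G041300, with 29.4, 24.7, 23.4, 27.5 and 28.8 TPM, also rounded to 1.25. Sobic.010G152000 had 46.1, 43.3, 42.6, 54.0 and 50.4 TPM, a ratio of 1.27, and was highest at 20 DAP, unlike most of the set. Sobic.002G177000, with 156, 138, 156, 165 and 129 TPM and a ratio of 1.28, was the one of these 5 with a mean above 100 TPM. Their courses differ, and no stage was the highest for more than 2 of them.

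Within the set the ratio of highest to lowest TPM had a median of 1.75 and quartiles of 1.59 and 1.89. Only 2 genes lay under 1.25 and 41 under 1.5. Among the 2091 genes of at least 20 TPM, 102 had a ratio from 1.5 to below 1.75, 142 from 1.75 to below 2, 187 from 2 to below 2.25 and 180 from 2.25 to below 2.5. The number of genes thus grew up to the limit and was larger just past it, and the limit of 2 does not mark a gap in the distribution. The median ratio of the 2091 genes was 3.14.

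**Figure D1:**
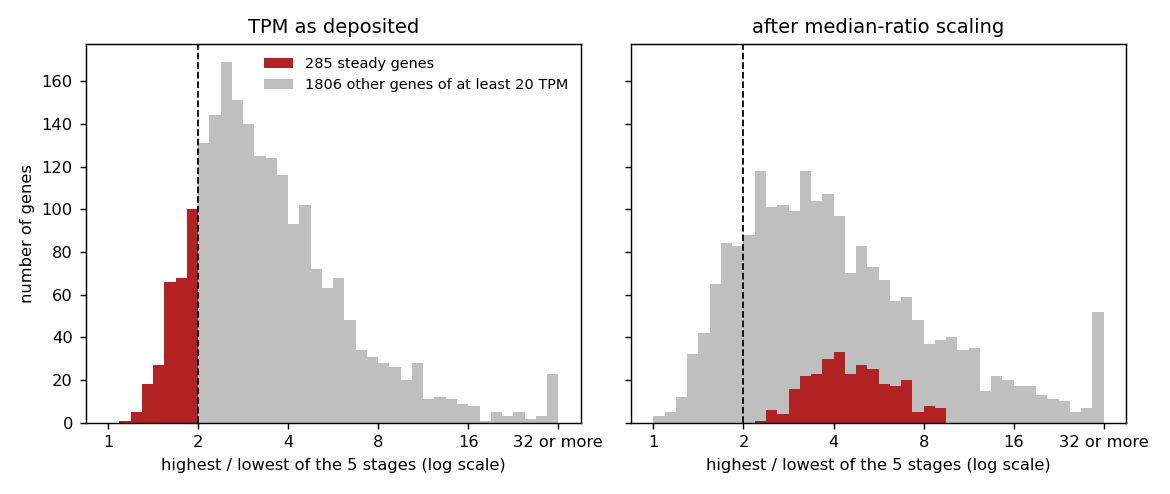
Number of genes (vertical axis) by the ratio of highest to lowest value over the 5 stages (horizontal axis, log scale, the dashed line at 2), for the 285 steady genes in red stacked with the 1806 other genes of at least 20 TPM in grey, as deposited (left) and after median-ratio scaling (right). As deposited the red bars end at the limit of 2 by the rule, with 142 genes between 1.75 and 2; after scaling all red bars lie between 2.33 and 9.14.

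Genes on either side of the limits hardly differed. Just inside 2-fold were Sobic.009G171100, with 106, 82.2, 116, 66.9 and 58.2 TPM from the first stage to the last, Sobic.009G199800, with 40.3, 26.8, 27.3, 20.2 and 23.2 TPM, and Sobic.006G095400, with 36.2, 40.4, 60.5, 41.1 and 72.3 TPM. Just outside were Sobic.009G131100, with 307, 260, 160, 154 and 177 TPM, Sobic.006G281200, with 48.1, 38.7, 33.1, 24.0 and 32.3 TPM, and Sobic.009G089700, with 46.3, 48.7, 43.8, 33.1 and 24.3 TPM. The ratios ran from 1.996 to 1.999 inside and from 2.002 to 2.004 outside. At the level limit, Sobic.006G009400 entered with a lowest value of 20.2 TPM at 20 DAP, as did Sobic.009G199800. Sobic.007G180600 and Sobic.004G248800 stayed out with lowest values of 19.99 TPM (20 DAP) and 19.97 TPM (30 DAP), and with ratios of 1.73 and 1.95.

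The share of steady genes was smaller in the classes of higher level. The steady genes made up 27.8% of the 449 genes with a mean of 20 to 50 TPM, 11.1% of the 777 genes of 50 to 100 TPM, 8.72% of the 768 genes of 100 to 500 TPM and 7.22% of the 97 genes of 500 TPM or more. The minimum of 20 TPM takes part in this order, since a gene with a mean close to 20 TPM and no value below 20 cannot have a wide range. Spearman's rho between mean TPM and ratio was 0.15 across the 285 steady genes, whose ratios the rule had already limited, and 0.39 across the 2091 genes of at least 20 TPM. These genes share the same 5 columns and are not independent. The median ratio of the steady genes was 1.72, 1.80, 1.75 and 1.90 in the 4 classes of rising level.

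**Figure D2:**
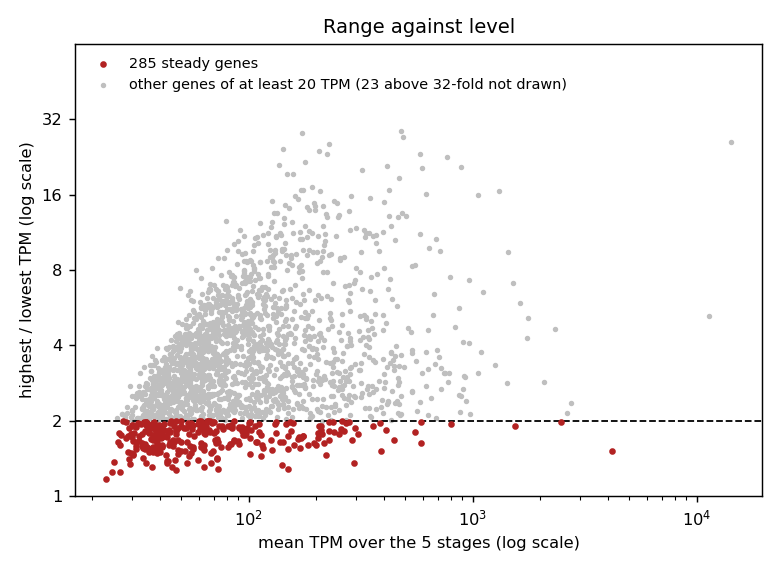
Ratio of highest to lowest TPM (vertical axis, log scale) against mean TPM over the 5 stages (horizontal axis, log scale) for the 285 steady genes in red and the other genes of at least 20 TPM in grey, 1 point per gene. The empty upper left corner is set by the minimum of 20 TPM, and 7 steady genes lie at a mean of 500 TPM or more.

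Even inside the 2-fold limit the steady genes did not scatter evenly over the stages. The highest value belonged to 1-2 DBP in 119 of the 285 genes, to 10 DAP in 73, to 30 DAP in 43, to 0-2 DAP in 36 and to 20 DAP in 14. The lowest value belonged to 20 DAP in 128 genes, to 30 DAP in 77, to 0-2 DAP in 40, to 10 DAP in 26 and to 1-2 DBP in 14. The most frequent combination, with 54 genes, was highest at 1-2 DBP and lowest at 20 DAP, followed by 39 genes highest at 10 DAP and lowest at 20 DAP. Among the 1806 other genes of at least 20 TPM, 48.2% were highest at 1-2 DBP and 44.2% lowest at 30 DAP, while 41.8% of the steady genes were highest at 1-2 DBP and 27.0% lowest at 30 DAP. Lowest at 20 DAP were 44.9% of the steady genes and 33.8% of the others, and highest at 10 DAP were 25.6% and 15.1%. Since all of these values entered the rule, the shares are a description. The geometric mean of the 285 genes was 78.0, 68.4, 72.9, 58.5 and 65.8 TPM in stage order.

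From one stage to the next the steady genes shifted by small steps. At 0-2 DAP 209 genes were lower than at 1-2 DBP and 76 higher, with a median log2 difference of -0.18. At 10 DAP 174 were higher than at 0-2 DAP and 111 lower, with a median of 0.10. At 20 DAP 219 were lower than at 10 DAP and 66 higher, with a median of -0.33, the largest of the 4 steps. At 30 DAP 183 were higher than at 20 DAP and 102 lower, with a median of 0.19. No steady gene was higher at every step, and 6 were lower at every step. The same was not counted for other genes, so these numbers do not set the steady genes apart. The other genes of at least 20 TPM had medians of -0.26, -0.39, -0.48 and 0.01 over the same steps, so the steps into 0-2 DAP and 20 DAP had the same sign in both and the step into 10 DAP the opposite sign.

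The part of the range that all steady genes share can be taken out by dividing each column by their geometric mean. The ratios that remain compare the genes with one another and do not depend on any scaling factor. Their median was 1.59, with quartiles of 1.45 and 1.76 and a span of 1.11 to 2.37, and 265 of the 285 stayed under 2 and 99 under 1.5. Of all 2091 genes of at least 20 TPM 21.2% were under 2 on this scale and 4.73% under 1.5, and the steady genes had been chosen for a range under 2 on a scale close to it. Sobic.003G424800, chosen after its values were seen, kept closest to the others, with 84.6, 75.1, 77.0, 59.9 and 65.0 TPM, a ratio of 1.41 as deposited and 1.11 against the other members. Sobic.006G095400 kept least close, at 2.37. Its values at 10 and 30 DAP, of 60.5 and 72.3 TPM, stood well above the other 3.

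One stage alone kept a number of genes out. Leaving out the 30 DAP column from the fold limit, 279 more of the genes of at least 20 TPM in all 5 stages would have been steady. The number was 216 for 1-2 DBP, 214 for 20 DAP, 114 for 10 DAP and 75 for 0-2 DAP. The 285 genes themselves held the limit with any column left out by construction. Leaving out each column in stage order, 92, 65, 74, 100 and 87 of them lay under 1.5. With all 5 columns 41 did, and a dropped column can only raise this number.

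The rank of a gene among all 31337 genes within a column does not depend on how that column is scaled. The steady genes were at median ranks of 3354, 3726, 2150, 1799 and 1579 in stage order, where rank 1 is the most abundant gene. At 30 DAP 272 of the 285 stood at a better rank than at 1-2 DBP, against 56.4% of all 2091 genes of at least 20 TPM. Genes of even TPM thus climbed past others. Over the same stages the table had, at 20 TPM or more, 9952, 9881, 6431, 4574 and 3513 genes, and since each steady gene is among them at every stage, the rule alone bounds their worst rank more tightly at each later stage. The worst rank of a steady gene was 9553 at 1-2 DBP and 3453 at 30 DAP. The ratio of worst to best rank had a median of 2.54 and lay under 2 for 69 of the 285, or 24.2%, close to the 21.5% of all 2091 genes for which it did.

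Sobic.010G224300, the gene of the smallest TPM range, moved from rank 9553 at 1-2 DBP through 9271, 5202 and 3922 to rank 3098 at 30 DAP. The abundant Sobic.003G071901 moved the other way, from rank 8 through 10, 17 and 27 to rank 46. Its TPM was 3942 at 1-2 DBP and 3614 at 30 DAP, and Its rank of 46 came with a TPM close to the first one. The other 4 of the most abundant members also ranked worse at 30 DAP than at 1-2 DBP. Sobic.002G177000 held ranks 1058, 1176, 794, 532 and 722.

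**Figure D3:**
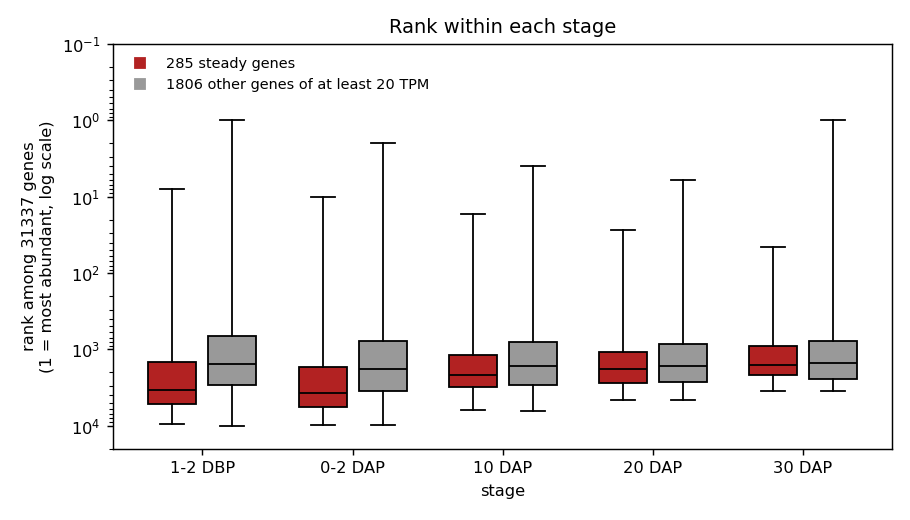
Rank of each gene among all 31337 genes (vertical axis, log scale, rank 1 at the top) in each stage column (horizontal axis), for the 285 steady genes in red and the 1806 other genes of at least 20 TPM in grey; boxes span the quartiles with the median as a line, and whiskers reach the lowest and highest values. The red median moves from rank 3354 at 1-2 DBP to 1579 at 30 DAP, while the grey median is 1530.5 and 1521.5 at these stages.

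Median-ratio scaling asks that the typical gene, and not the column total, be even. Each value is divided by its gene's geometric mean over the stages, the median of these quotients over the 23243 genes above 0 in every column is taken as the factor of a column, and the column is divided by it. In stage order the 5 factors were 1.88, 1.89, 1.03, 0.673 and 0.411. The steady genes changed from even to climbing on this scale. Their median scaled value was 33.7 at 1-2 DBP, then 30.0, 58.3 and 74.1, and 123.5 at 30 DAP. The highest of the 5 values was 4.50 times the lowest in the median, with quartiles of 3.61 and 5.73, and 0 of the 285 genes stayed under 2-fold, against 15.6% of all 2091 genes of at least 20 TPM.

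This outcome is arithmetic. The factors of 1-2 DBP and 30 DAP differ 4.58 times, and a gene can be within 2-fold on both scales only where the factors of every pair of stages differ by less than 4 times. After scaling each of the 285 genes was more than 2-fold higher at 30 DAP than at 1-2 DBP, which the rule and the factors fix, and 59.8% of all 2091 genes were. Their log2 difference between these stages ran from 1.20 to 3.19, with a median of 1.90, while as deposited it had run from -0.99 to 1.00, with a median of -0.29.

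The 2-fold steps of the scaled values fell mostly at 10 DAP and at 30 DAP, as they did for all 2091 genes of at least 20 TPM. At 10 DAP 134 of the 285 steady genes were at least 2-fold higher than at 0-2 DAP, where 32.2% of all 2091 genes were. At 20 DAP 10 were 2-fold higher than at 10 DAP, a smaller share than the 7.8% of all. At 30 DAP 114 were 2-fold higher than at 20 DAP, about the same share as the 40.5% of all, so this step did not set the steady genes apart. At these 3 steps a 2-fold lower value was not possible for a steady gene, since each later stage had the smaller factor, and between 1-2 DBP and 0-2 DAP the nearly equal factors left the genes within 2-fold. The values at all 3 later stages lay above both of the earlier ones for 280 of the 285 steady genes after scaling and for 12 as deposited, against 51.6% and 5.02% of all 2091 genes. At 30 DAP 277 of the 285 had their highest scaled value, against 71.4% of all 2091 genes, and the other 8 had it at 20 DAP, against 8.23%. Higher at every step were 48 of the 285, against 4.64% of all. The even TPM that chose the genes and the smaller factors of the later stages enter all of these counts.

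**Figure D4:**
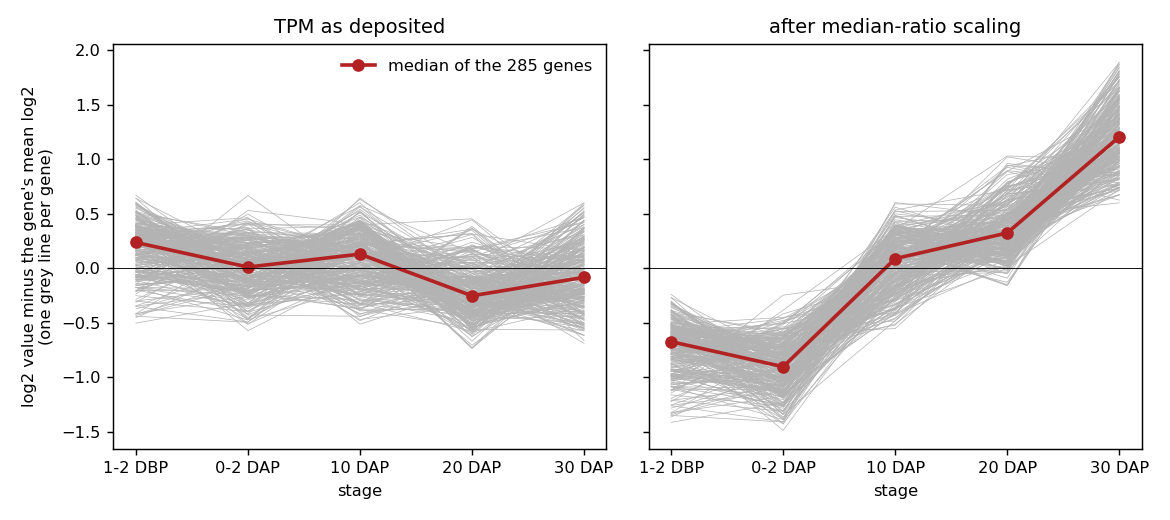
Log2 value of each of the 285 steady genes minus its own mean over the stages (vertical axis) by stage (horizontal axis), as deposited (left) and after median-ratio scaling (right), with 1 grey line per gene and the median in red. On the left all lines keep within 2-fold by the rule; on the right the lines climb, with a median difference of 1.90 on the log2 scale between 30 DAP and 1-2 DBP.

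Individual genes show the same turn. Sobic.010G224300, the most even gene as deposited, had scaled values of 11.4, 11.7, 24.5, 34.6 and 57.5 in stage order, a ratio of 5.03. Sobic.003G071901, the most abundant, had 2093, 1952, 5310, 6230 and 8790, a ratio of 4.50. The range after scaling was smallest for Sobic.001G376800, at 2.33, with scaled values of 21.5, 21.5, 36.5, 46.3 and 49.998. As deposited that gene had 40.5, 40.7, 37.7, 31.2 and 20.6 TPM, so it was one whose TPM was lowest at 30 DAP. Next came Sobic.001G282500, at 2.42, also lowest in TPM at 30 DAP. The largest range after scaling, 9.14, belonged to Sobic.006G095400, with scaled values of 19.2, 21.4, 58.6, 61.1 and 175.9, followed by Sobic.006G266100 at 9.10. Both had their highest TPM at 30 DAP as deposited.

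Applied again to the scaled values, the rule found 770 genes, and 0 of them were among the 285. As deposited these 770 genes had ratios between 2.38 and 9.18, with a median of 4.87. Sobic.006G211800, chosen after its values were seen as the most even of them, had scaled values of 62.4, 58.5, 62.5, 59.6 and 59.6, and 117, 110, 64.5, 40.1 and 24.5 TPM as deposited. Its course in TPM was that of the factors.

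The outcome turned on which genes set the factors. Computed from the 14004 genes of at least 1 TPM in all stages, the factors still differed 3.78 times, and 2 of the 285 steady genes stayed under 2-fold. Computed from the 2091 genes of at least 20 TPM in all stages, the factors were 1.46, 1.21, 0.982, 0.709 and 0.761, a difference of 2.05 times at most. On that scale 157 of the 285 stayed under 2-fold, against 29.9% of all 2091 genes, and their median values were 43.6, 46.9, 61.2, 70.3 and 66.7. The steady genes' lowest value then belonged to 1-2 DBP in 163 genes, against 19.1% of all 2091 genes, and to 0-2 DAP in 95, against 19.3%. Of the 285, 67 were at least 2-fold higher at 30 DAP than at 1-2 DBP, a share near the 20.5% of all 2091 genes. The values at the 3 later stages lay above both earlier ones for 181 of the 285, against 22.5%. The even TPM that chose the genes and the larger factors of the first 2 stages enter all counts on this scale. The steady genes are also among the 2091 that set these factors.

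The share held by the most abundant genes differed between the stages. The 100 genes with the highest TPM of any column held 7.76% and 9.73% of all TPM in the first 2 stages, and 33.5%, 52.0% and 48.2% in the 3 that followed. With these genes left out and TPM recomputed, 149 of the 283 remaining steady genes stayed under 2-fold, against 29.9% of the remaining 2068 genes of at least 20 TPM. The share of the 100 genes was lower at 30 than at 20 DAP, as the median-ratio factor was, while at each step before it was higher at the later stage. Its part in the factors was not tested. With quantile normalization, which gives every column the same distribution of values, 94 of the 285 did, against 28.1% of all 2091 genes.

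Raising the median-ratio factors to a power between 0 and 1 leads from the deposited values to the fully scaled ones. At a power of 0.25, 213 of the 285 steady genes were under 2-fold, at 0.5 113 and at 0.75 14. How many of the 2091 genes of at least 20 TPM were under 2-fold at these powers was not counted. The loss of steady genes therefore cannot be told apart from what the scaling does to other genes. The number of genes meeting the rule on each scale was 533, 722 and 826, of which 210, 111 and 14 were among the 285. These counts are over all 31337 genes, with the rule applied to the rescaled values, and do not supply that comparison.

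**Figure D5:**
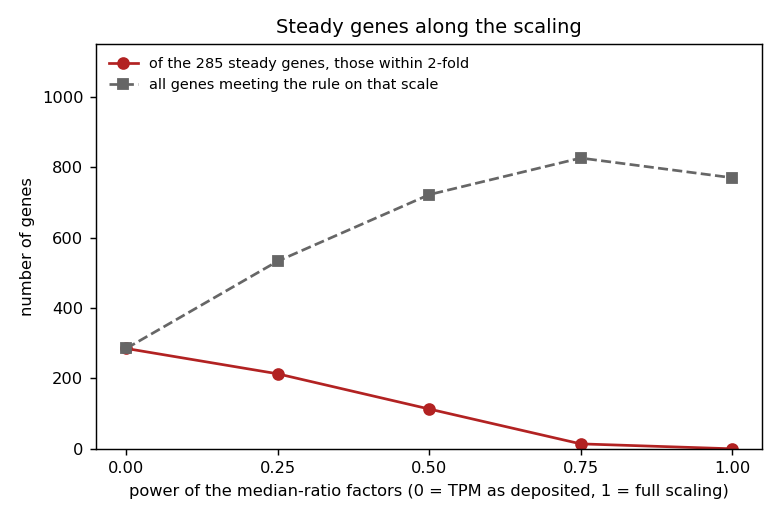
Number of genes (vertical axis) against the power to which the median-ratio factors were raised before dividing (horizontal axis, 0 for TPM as deposited and 1 for full scaling): the 285 steady genes still under 2-fold as red circles, and all genes meeting the rule on that scale as grey squares. The red line passes 213, 113 and 14 and ends at 0, while the grey squares end at 770.

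A smaller number of genes stayed even on several scales. Of the 285, 75 were under 2-fold as deposited, after quantile normalization, with factors from the genes of at least 20 TPM and with the 100 most abundant genes left out, and none of them under 1.5-fold on all 4 scales. On the 3 scales other than the deposited one, on which the genes were not chosen but which are computed from the same values, the 75 stand beside 19% of the 2068 genes of at least 20 TPM left without the 100 most abundant. The 3 with the smallest worst ratio over the 4 scales, picked once their values were known, follow. Sobic.003G123000 had 94.9, 98.4, 89.7, 61.0 and 70.2 TPM and a worst ratio of 1.61. Sobic.001G243100 had 182, 166, 118, 138 and 146 TPM and a worst ratio of 1.62. Sobic.003G188500 had 106, 88.9, 87.3, 65.4 and 68.4 TPM and a worst ratio of 1.63. With the median-ratio factors over all genes their ratios were 3.39, 4.04 and 3.53.

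The IDs place the steady genes in all 10 numbered parts of the table. The first 3 digits of an ID run from 001 to 010, and each of these 10 prefixes held between 10 and 50 of the 285 genes. Prefix 001 held 50, or 17.5% of the steady genes against 17.0% of the table, and prefix 005 held 10, or 3.51% against 6.60%. Prefix 005 also had few genes of at least 20 TPM in all stages, 69 of its 2068, and the steady genes were 14.5% of those 69, near the 13.6% of the whole. The share ran from 11.1% for prefix 009 to 15.8% for prefix 002. None of the 284 genes with a K in place of the digits reached 20 TPM in all stages.

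IDs whose number does not end in 00 made up 4.21% of the steady genes, 6.46% of the 2091 genes of at least 20 TPM and 15.6% of the table. The steady genes included 5 pairs in neighbouring rows of the table, an order that need not be free of gaps along the chromosome. They are Sobic.001G061400 with Sobic.001G061500, Sobic.001G420000 with Sobic.001G420100, Sobic.002G374900 with Sobic.002G375000, Sobic.002G395500 with Sobic.002G395600, and Sobic.003G122500 with Sobic.003G122800. The pairs had mean levels of 102 and 196, 43.7 and 41.9, 280 and 133, 43.1 and 40.9, and 60.2 and 33.0 TPM. Such pairs were not counted for the 2091 genes of at least 20 TPM, so the number 5 says nothing about clustering. Sobic.002G374900 had 257, 284, 367, 185 and 304 TPM in stage order, and Sobic.002G375000 had 122, 135, 175, 88.0 and 145 TPM. These courses were nearly proportional at all 5 stages, both with a ratio of 1.98, so the pair need not stand for separate steady genes. How the authors' counting treats near-identical copies is not given in the sources used here. Whether this pair or any other shares reads was not tested.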

How the data were processed

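RNA of 14 libraries from 5 stages was sequenced. The deposited table, per the file headers, holds TPM values, with 1 column per stage, which the authors scaled so that each sums to 1000000. Nothing says how the libraries of a stage became 1 value. The submitters' processing notes list HISAT2, featureCounts (2.2.0) and DESeq2 and give no step for any of them, and the genome build is not given in the sources used here. Depth is unknown, since TPM keeps none, so no counting interval is given. With 1 value per stage no test between stages could be run.

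Here the rule, ratios, ranks, shares and scalings were computed with Python 3.11.15, numpy 2.4.6, pandas 2.3.3 and scipy 1.17.1, with no pseudocount in the main values. The computation of the rule and the factors was checked on simulated data with planted steady genes and known column factors. That simulation did not model the change in share of the most abundant genes, so it checks the computation only. The members and lists were chosen with earlier results of these data known. Genes were named by smallest range, highest mean, nearness to the limits and extremes after scaling. For the extremes after scaling 2 IDs of 5 at each end are printed. Lists by gene function could not be formed without names. Alternatives were other scalings, level minimums of 1, 10 and 50 TPM, fold limits of 1.5 and 3, a pseudocount of 1 TPM and leaving out each stage. Partial powers of the factors, and factors from genes of at least 20 TPM for the count of genes, were added after seeing the data.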

Additional observations from a re-analysis of the deposited data

How the results depend on the processing

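The count of 285 genes moved under every choice. It moved by less than 1.5 times with the pseudocount, which gave 299, and without the columns of 0-2 DAP and 10 DAP, which gave 381 and 410. It was 770 after median-ratio scaling, 785 with factors from genes of at least 20 TPM, 1054 without the 100 most abundant genes and 1159 with quantile normalization. Minimums of 1, 10 and 50 TPM gave 708, 470 and 119 genes, and fold limits of 1.5 and 3 gave 41 and 981. Leaving out 1-2 DBP, 20 DAP or 30 DAP gave 507, 575 and 848. Factors to the powers of 0.25, 0.5 and 0.75 gave 533, 722 and 826. Against 0 members under 2-fold after median-ratio scaling, 149 were without the 100 most abundant genes, 94 with quantile normalization, 2 and 157 with factors from genes of at least 1 and 20 TPM, and 213, 113 and 14 at the 3 powers. The median ratio of 1.75 was 4.50 under median-ratio factors and 2.33 under quantile normalization. After quantile normalization 60 members instead of 134 were 2-fold higher at 10 than at 0-2 DAP, 4 instead of 10 at 20 than at 10 DAP and 3 instead of 114 at 30 than at 20 DAP. Of all 2091 genes of at least 20 TPM, 400, 96 and 251 were 2-fold higher at these 3 steps on that scale. Quantile normalization made 2 members 2-fold lower at 0-2 DAP than at 1-2 DBP and 2 at 20 than at 10 DAP, instead of 0 at both. Of all 2091 genes 238 and 71 were. A looser limit, a lower minimum or a dropped column admits more genes by construction. For the other differences the cause was not tested. Among the 23 named members, the ratio moved by more than 1.5 times for 18 under median-ratio factors and for 13 under quantile normalization. The 5 that did not move under median-ratio factors are those picked for the smallest range after that scaling. That split thus follows from the picking and does not describe the 285 genes. No paired analysis was possible because there are no values per library, nor could replicates be left out. Without known depth, ranges near 1.2 cannot be set against sampling error.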
